A study of Heterocephalus glaber with 9 samples.

Results

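The genes described here are 10 markers of hepatic stellate cells and of the myofibroblasts these cells can turn into: ACTA2, TAGLN, DES, VIM, PDGFRA, PDGFRB, RGS5, BGN, DCN and LUM. They were chosen by gene symbol, with earlier results of these data known. All 10 were found among the 16339 rows of the deposited count table of naked mole-rat liver. The table holds 3 old and 6 young male animals with 1 polyadenylated RNA library each. The old animals are labelled non-breeders and were 20 (liver A), 30 (liver B) and 20 years old (liver C) by the sample labels. The methods count these ages as time recorded in captivity and place the minimum above the lower of these labels. The young animals were 3.4, 2.7, 4.1, 3.7, 3.8 and 2.8 years old (young livers 1 to 6), and their labels give no breeding status. The labels name no treatment or engineered allele in either group, and the tissue is whole liver.

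Stellate cells lie between the hepatocytes and the endothelium of the liver sinusoids, where they store vitamin A as retinyl esters and act as the pericytes of these vessels. In an injured liver they lose their vitamin A, divide in response to platelet-derived growth factor (PDGF) and become contractile myofibroblasts that lay down collagen and proteoglycans. Most of the 10 markers are shared with other cells: ACTA2, TAGLN and DES with vascular smooth muscle, RGS5 and PDGFRB with other pericytes, and VIM, DCN, BGN and LUM with fibroblasts, while endothelium also expresses VIM. In RNA from a whole liver, fewer cells of a type and less RNA per cell cannot be told apart.

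Each liver had between 14541856 and 20464409 counts, of which 1618 to 5315 fell on the 10 markers. Old liver A and young liver 3, the liver of the oldest young animal, stand apart from their groups. Liver A correlated with livers B and C over genes with Spearman's rho of 0.841 and 0.853, against 0.989 between B and C, and young liver 3 with the other young livers with 0.901 to 0.915. Albumin (ALB), the main plasma protein of hepatocytes, took 1.41%, 7.69% and 6.99% of the counts in old livers A, B and C and 7.86% to 14.8% in young livers. MTRNR2L4, whose sequence is akin to a mitochondrial rRNA, held 10.1% of all counts in liver A and 11.9% in young liver 3, against 2.43% to 4.17% in the other 7 livers, so these livers stand apart together across the age groups, and the part of this in the marker levels was not tested. The young samples are marked as re-used data and their file labels start with another prefix than those of the old samples, so age and the origin of the libraries cannot be told apart. Levels are given in CPM, the counts of a gene scaled to a fixed library size with TMM factors (which offset differences in RNA composition), and 3 counts are worth 0.134 to 0.217 CPM. Differences of old over young livers are given as log2 fold changes with their standard error (SE). Calls come from edgeR's quasi-likelihood test at a false discovery rate (FDR) of 0.1 over all 12277 genes tested.

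Biglycan (BGN) and RGS5, 2 of the 10 markers, fell in old livers, and the other 8 did not pass the test. BGN averaged 57.9 ± 21.6 CPM in old livers and 129 ± 24.5 CPM in young livers (SD, n = 3 and n = 6). RGS5 averaged 2.35 ± 1.39 CPM in old livers and 6.60 ± 2.19 CPM in young livers. The share of all tested genes called lower in old livers was 3.65%, and 15.4% were called in either direction. All 10 log2 fold changes were negative, with a median of -0.90, whereas the median of all genes tested was 0.02 and 49.2% of them were negative. The summed level of the 10 markers was 90.4, 200.5 and 189.7 CPM in old livers A, B and C, against 247 to 344 CPM in young livers (median 285), so the groups did not overlap. BGN and VIM together supplied 55.4% to 73.4% of the counts on the markers, so this sum mostly follows these genes.

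**Figure D1:**
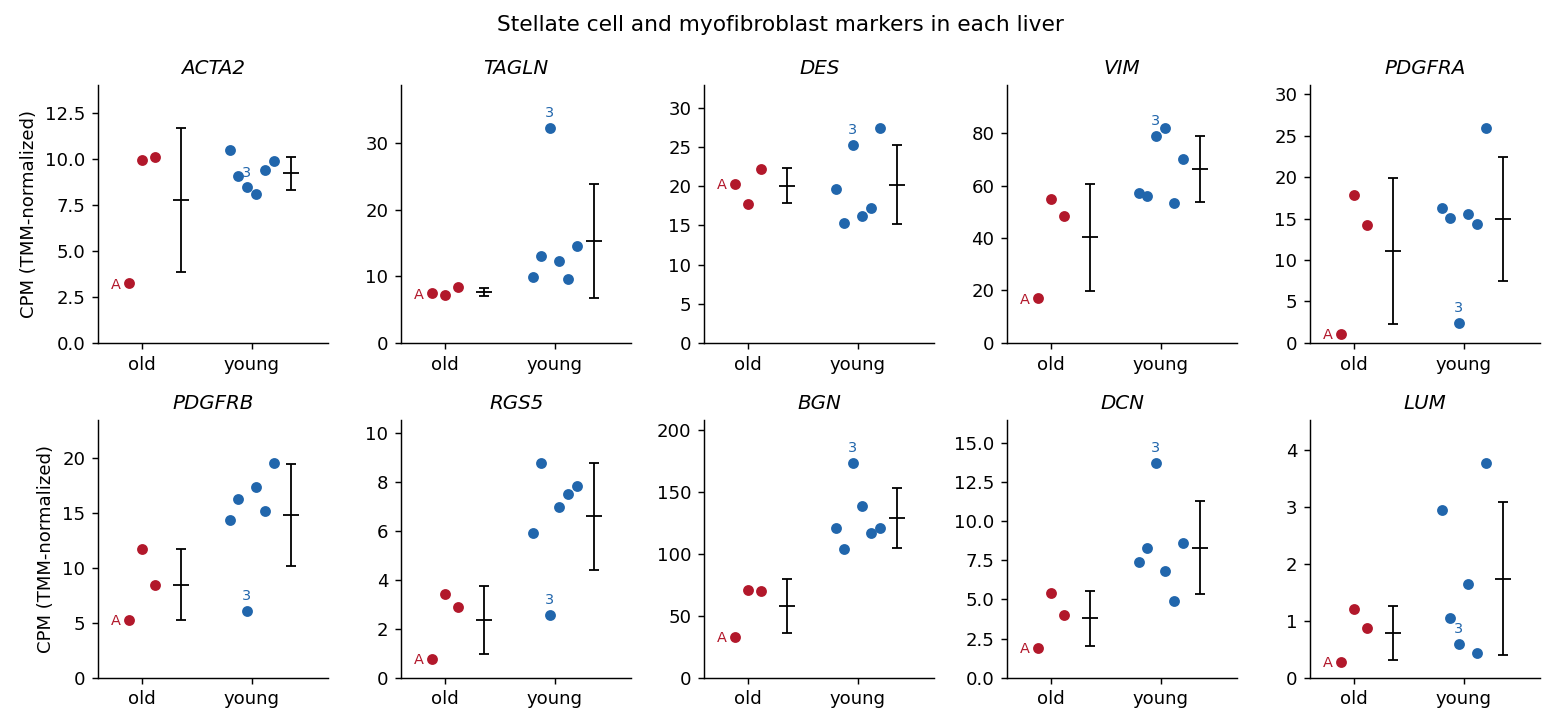
Level of each of the 10 markers in each liver, in TMM-normalized CPM on a linear axis. Points are livers (old red, with liver A marked; young blue, with young liver 3 marked), and the bar beside each group is the mean ± SD (n = 3 old, n = 6 young). The 3 old livers lie below all 6 young livers in BGN and TAGLN, liver A is the lowest of the 9 livers in 8 of the 10 genes, and young liver 3 is far below the other young livers in PDGFRA, PDGFRB and RGS5.

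Among the genes of the contractile apparatus and the cytoskeleton, none passed the test. ACTA2 encodes the smooth muscle actin by which myofibroblasts are usually recognised. It had 3.24, 9.95 and 10.1 CPM in old livers A, B and C, against 8.09 to 10.5 CPM in young livers (median 9.23). Livers B and C thus lay within the narrow range of the young livers and liver A alone lay below it. Its log2 fold change was -0.25 (SE 0.33, FDR = 0.632, edgeR), and it was 0.12 without liver A.

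TAGLN encodes transgelin, an actin-binding protein of smooth muscle and of myofibroblasts. It had 7.43, 7.26 and 8.39 CPM in old livers A, B and C, against 9.62 to 32.3 CPM in young livers (median 12.6). The old livers were close together and all below the young ones, as were those of 8.01% of all genes tested (in 9.83% they were all above). The log2 fold change of -0.99 (SE 0.40) missed the threshold (FDR = 0.133, edgeR). Young liver 3 had 32.3 CPM where the other young livers had at most 14.6, and without it the log2 fold change was -0.62 and TAGLN was called (FDR = 0.0792, with a range of 0.0349 to 0.321 over all alternatives tried, edgeR, voom and DESeq2).

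DES encodes desmin, the intermediate filament of muscle and a marker of stellate cells in rodents. It had 20.3, 17.8 and 22.2 CPM in old livers A, B and C, against 15.3 to 27.4 CPM in young livers (median 18.4). All 3 old livers lay within the range of the young ones, and the log2 fold change was -0.01 (SE 0.24, FDR = 0.988, edgeR). Of the 10 markers, only DES had liver A above the median of the young livers. VIM encodes vimentin, the intermediate filament of mesenchymal cells. It had 17.1, 55.1 and 48.5 CPM in old livers A, B and C, against 53.2 to 82.0 CPM in young livers (median 63.6). Liver B was near the low end of the young range, and livers A and C lay below it. The log2 fold change was -0.72 (SE 0.34, FDR = 0.188, edgeR), or -0.36 without liver A.

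**Figure D2:**
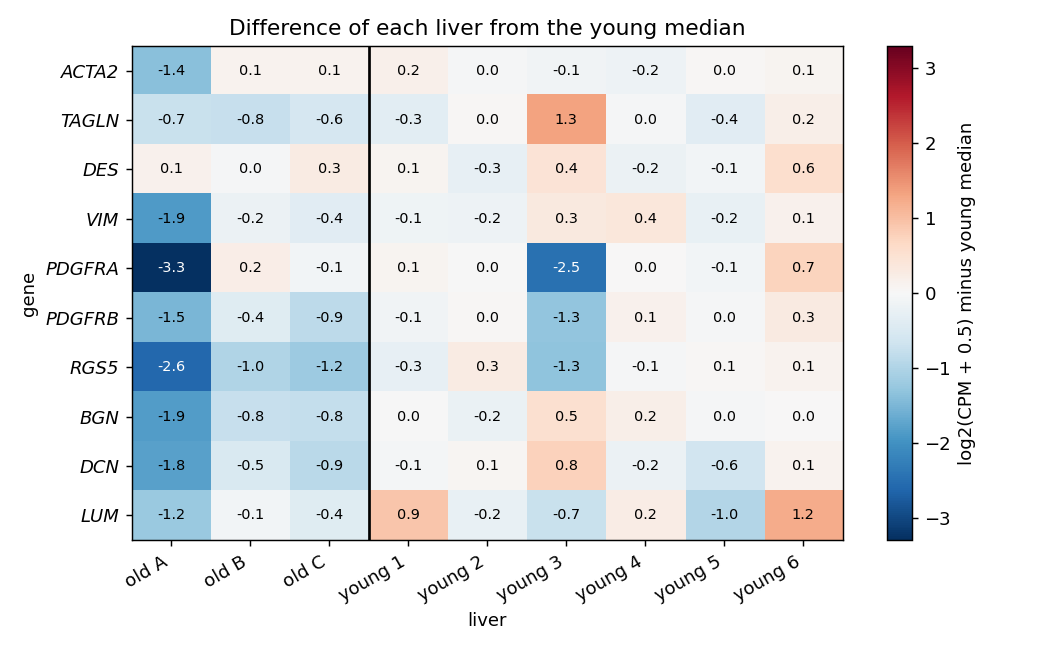
Difference of each liver from the median of the young livers on the log2(CPM + 0.5) scale (colour and printed value), with genes as rows, the 3 old livers left of the line and the 6 young livers right of it. Liver A is below the young median in every gene but DES, while young liver 3 is low in PDGFRA (-2.46), PDGFRB (-1.30) and RGS5 (-1.33) and high in TAGLN (1.32), DCN (0.77) and BGN (0.52).

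The PDGF receptors carry the growth signal of stellate cells: PDGFRB, which binds PDGF-BB, appears as the cells are activated, and PDGFRA is the partner that also binds PDGF-AA. PDGFRB had 5.25, 11.7 and 8.44 CPM in old livers A, B and C, against 6.07 to 19.6 CPM in young livers (median 15.7). Only young liver 3 lay among the old livers, and the other 5 young livers had at least 14.4 CPM. This gave a log2 fold change of -0.80 (SE 0.37, FDR = 0.178, edgeR). Without young liver 3 it was -0.96 and PDGFRB was called (FDR = 0.0533, edgeR), within a range of 0.0127 to 0.479 over all alternatives.

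PDGFRA had 1.12, 17.8 and 14.2 CPM in old livers A, B and C, against 2.38 to 26.0 CPM in young livers (median 15.3). The 20 counts of liver A and the 36 counts of young liver 3 stand against 199 to 398 in the other 7 livers. The log2 fold change was -0.43 (SE 0.74, FDR = 0.713, edgeR), and 0.10 without liver A. The ratio of PDGFRA to PDGFRB counts within a liver does not depend on library scaling. It was 0.217, 1.52 and 1.68 in old livers A, B and C, against 0.395 to 1.32 in young livers. The mean log2 ratio differed by -0.10 (two-sided exact permutation test over 84 splits, p = 0.905, where 0.0238 is the smallest p it allows). Without liver A, livers B and C lay above all young livers and the difference was 0.86 (exact p = 0.0714, the smallest that 2 livers against 6 allow).

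RGS5, a regulator that shortens signalling through G proteins and a marker of pericytes, had 0.782, 3.41 and 2.87 CPM in old livers A, B and C. The young livers had 2.58 to 8.79 CPM (median 7.25). The old livers overlapped the young ones only through young liver 3 (2.58 CPM), since the other 5 young livers had at least 5.93 CPM. Its log2 fold change was -1.48 (SE 0.49, FDR = 0.0907, edgeR). This call is close to the threshold: it was lost without liver A (log2 fold change -1.07, FDR = 0.222), without liver C (FDR = 0.107) and when young liver 1, 2, 4, 5 or 6 was left out (FDR = 0.134 to 0.166, edgeR). Without young liver 3 the log2 fold change was -1.64, and RGS5 stayed below the threshold of 0.1.

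**Figure D3:**
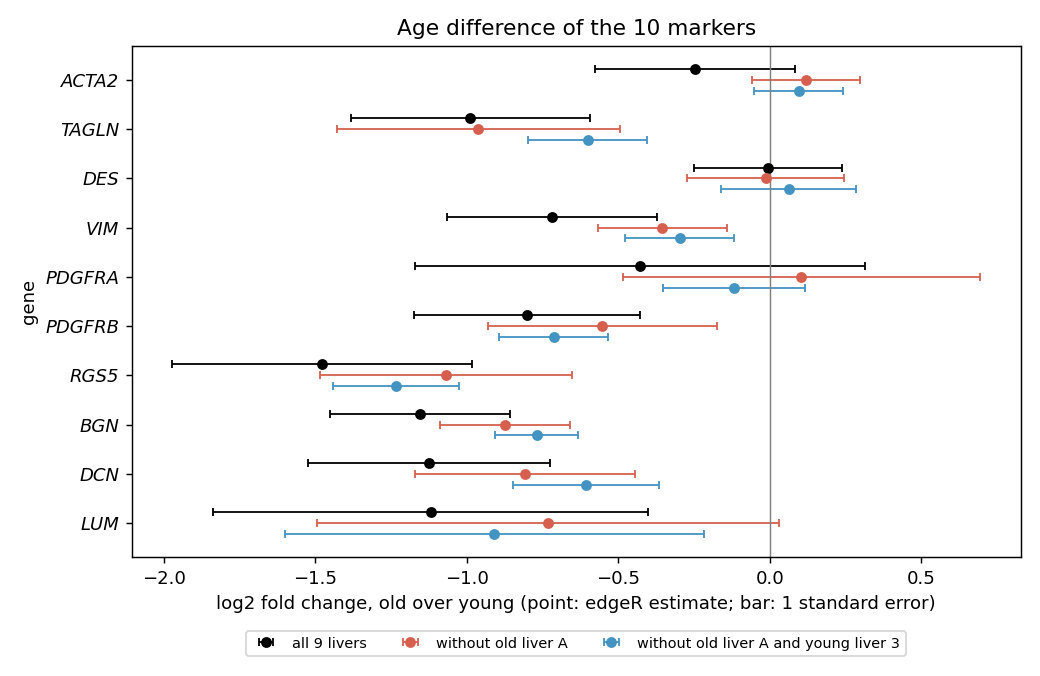
log2 fold change of each marker, old over young (points, edgeR), with 1 standard error (bars), for all 9 livers, without old liver A, and without both old liver A and young liver 3. With all 9 livers every estimate is below 0, from -0.01 in DES to -1.48 in RGS5, and without both livers the estimates of ACTA2 and DES are above 0.

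The remaining markers are small leucine-rich proteoglycans, which bind collagen fibrils and growth factors in the extracellular matrix. Biglycan (BGN) had 33.0, 70.8 and 70.0 CPM in old livers A, B and C, against 104 to 174 CPM in young livers (median 121). The groups did not overlap, and livers B and C were almost equal. The log2 fold change was -1.15 (SE 0.30, FDR = 0.0535, edgeR). Without liver A it was -0.87 and BGN was still called (FDR = 0.0905), whereas leaving out young liver 2, 4, 5 or 6 gave an FDR of 0.108 to 0.115 (edgeR). Far fewer genes passed in those fits, 62 to 95 lower in old livers in place of 448.

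Decorin (DCN), which binds collagen and TGF-beta, had 1.90, 5.43 and 4.03 CPM in old livers A, B and C, against 4.92 to 13.7 CPM in young livers (median 7.84). Only liver B reached into the young range, and there it passed only young liver 5. The log2 fold change of -1.13 (SE 0.40) lay just past the threshold (FDR = 0.103, edgeR). DCN was called without liver B (log2 fold change -1.48, FDR = 0.0665, edgeR), in DESeq2 (FDR = 0.0365) and in voom (FDR = 0.0507), in a range up to 0.285. Lumican (LUM), a proteoglycan whose gene lies beside that of DCN in mammals, had 0.279, 1.21 and 0.881 CPM in old livers A, B and C, against 0.434 to 3.78 CPM in young livers (median 1.35). These are 5 to 59 counts per liver, the young livers alone spanned most of the range, and the log2 fold change was -1.12 (SE 0.72, FDR = 0.308, edgeR). The ratio of LUM to DCN counts was 0.159, 0.226 and 0.223 in old livers A, B and C and 0.0456 to 0.441 in young livers, with a difference in mean log2 ratio of 0.24 (two-sided exact permutation test, p = 0.857). No difference in this ratio was detected, where the SD of the log2 ratio was 0.29 in old livers and 1.28 in young livers.

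Liver A and young liver 3 were both low in PDGFRA, PDGFRB and RGS5 and differed from each other in TAGLN, DCN, BGN and VIM. Liver A had the lowest level of the 9 livers in 8 of the 10 genes, with a median difference from the young median of -1.65 on the log2(CPM + 0.5) scale, against -0.30 for liver B and -0.48 for liver C. In livers B and C 8 of the 10 markers each lay below the young median. Young liver 5 also had 8 below it, and the other young livers had 0 to 6. Young liver 3 had the lowest young level of PDGFRA, PDGFRB and RGS5 and the highest young level of TAGLN, DCN and BGN. Without liver A alone, BGN was the 1 marker called lower in old livers, where 1.35% of all genes tested were. Without young liver 3 alone, PDGFRB, RGS5, TAGLN and BGN were called lower in old livers, 4 of 10 where 7.06% of all genes tested were. Young liver 3 is far from the other young livers in PDGFRB, RGS5 and TAGLN, so calls gained by leaving it out are not separate support. Without both liver A and young liver 3, PDGFRB (FDR = 0.0297), RGS5 (FDR = 0.00921), TAGLN (FDR = 0.0653) and BGN (FDR = 0.0101, edgeR) were again the 4 called, where 11.7% of all genes tested were called lower in old livers. In that fit the log2 fold change was 0.10 for ACTA2, 0.06 for DES and -0.12 for PDGFRA.

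Other marker lists bear on what these whole-liver levels can hold. The counts of called genes in these lists stand beside 3.65% of all genes tested that were called lower and 11.7% called higher in old livers. Among 16 tested markers of resting stellate cells, 2 fell and 2 rose in old livers, the share that rose being near that of all genes, and the median log2 fold change was -0.37 (-0.17 without liver A). LRAT, the enzyme that makes the stored retinyl esters, had 1.17, 5.25 and 4.31 CPM in old livers A, B and C, against 8.25 to 21.2 CPM in young livers, a log2 fold change of -1.94 (FDR = 0.0478, edgeR). RELN, a secreted glycoprotein that stellate cells make, had 18.4, 46.1 and 50.7 CPM in old livers A, B and C, against 44.1 to 95.8 CPM in young livers, and young liver 3 was again the lowest of the young (log2 fold change -1.07, FDR = 0.0898, edgeR). GFAP, a filament protein found in stellate cells of the rat, rose to 2.91, 1.57 and 3.43 CPM in old livers, against 0.289 to 0.945 CPM in young livers (log2 fold change 2.27, FDR = 0.0376, edgeR). BMP5, a growth factor of the BMP family, had 2.46, 1.30 and 1.48 CPM in old livers, against 0.528 to 1.06 CPM in young livers (log2 fold change 1.15, FDR = 0.0738, edgeR). Both rest on few counts. GFAP had 35 to 74 counts in old livers and 4 to 16 in young livers, and BMP5 had 29 to 44 and 8 to 19. Leaving out liver A ended the calls of RELN (log2 fold change -0.74, FDR = 0.209) and BMP5 (0.83, FDR = 0.246), but not those of LRAT (FDR = 0.0795) and GFAP (FDR = 0.0624, edgeR). LRAT lost its call without young liver 2, 4 or 6 (FDR = 0.102 to 0.108) while GFAP was called without each of the 9 livers in turn (edgeR). LRAT and RELN, which mark stellate cells more closely than the 10 markers do, were detected in every liver.

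Of 21 tested genes of the activated stellate cell and of scar matrix, 3 fell, none rose, and the median log2 fold change was -0.59 (-0.53 without liver A). COL3A1, the chain of collagen III, had 23.5, 29.4 and 23.8 CPM in old livers A, B and C, against 44.8 to 90.1 CPM in young livers. Its log2 fold change was -1.48 (SE 0.25, FDR = 0.0312, edgeR), and it was called without each of the 9 livers in turn. Periostin (POSTN) had 15.8, 39.0 and 37.5 CPM in old livers, against 58.0 to 116 CPM in young livers (log2 fold change -1.51, FDR = 0.0447, edgeR). SPARC, a collagen-binding matrix protein, had 24.8, 43.9 and 35.5 CPM in old livers, against 64.2 to 77.6 CPM in young livers (log2 fold change -1.002, FDR = 0.0436, edgeR). Both were also called without liver A (FDR = 0.0790 and 0.0567), and both lost their call without young liver 2 or 6 (FDR = 0.102 to 0.106, edgeR). COL1A1, a chain of collagen I, had 12.7, 16.5 and 10.3 CPM in old livers, against 11.4 to 22.5 CPM in young livers, with a log2 fold change of -0.29 (SE 0.26, FDR = 0.472, edgeR).

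**Figure D4:**
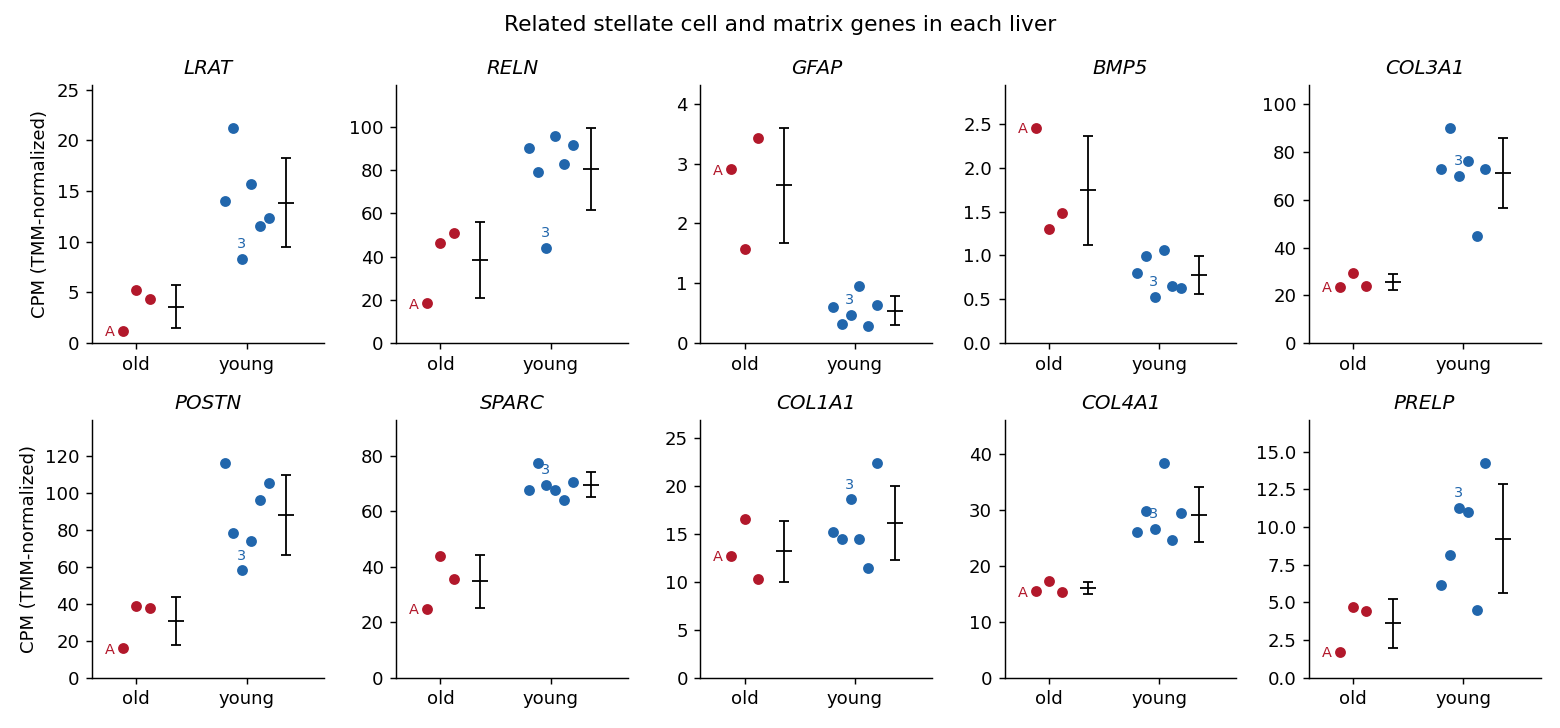
Level of 10 further stellate cell and matrix genes in each liver, in TMM-normalized CPM on a linear axis, with old livers in red (liver A marked), young livers in blue (young liver 3 marked) and mean ± SD bars (n = 3 old, n = 6 young). Old livers lie below all young livers in LRAT, COL3A1, POSTN, SPARC and COL4A1 and above them in GFAP and BMP5, while the groups overlap in COL1A1, RELN and PRELP.

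Of the other 4 small leucine-rich proteoglycans that were tested, all had a negative log2 fold change and PRELP fell, with 1.73, 4.66 and 4.45 CPM in old livers A, B and C, against 4.49 to 14.3 CPM in young livers (log2 fold change -1.35, FDR = 0.0856, edgeR). Among 16 further pericyte genes 15 were negative, with a median of -0.67 (-0.52 without liver A). COL4A1 of the basement membrane (log2 fold change -0.86, FDR = 0.0503) and NDUFA4L2, which is known from cells short of oxygen and from pericytes (-1.20, FDR = 0.0674, edgeR), fell. COL4A2 of the same list was not called (log2 fold change -0.18, SE 0.23, FDR = 0.616, edgeR). Of 16 genes of the contractile apparatus, 13 were negative with a median of -0.51 (-0.39 without liver A). CNN2, a calponin, fell (log2 fold change -2.28, FDR = 0.0723, edgeR) on only 4 to 8 counts in old livers and 5 to 43 in young livers. Without liver A the calls of PRELP (log2 fold change -1.02, FDR = 0.243), NDUFA4L2 (-1.05, FDR = 0.192) and CNN2 (-2.20, FDR = 0.207) were lost, although the fold changes of NDUFA4L2 and CNN2 were close to those of all 9 livers, but not that of COL4A1 (FDR = 0.0908), which was lost without young liver 2, 4 or 6 (FDR = 0.107 to 0.112, edgeR). Among 14 portal fibroblast genes, GLI1 alone passed (log2 fold change 3.28, FDR = 0.0447, edgeR), with 119.8 CPM in liver A against 11.9 and 30.2 CPM in livers B and C and 1.74 to 16.2 CPM in young livers. Without liver A it was not called (log2 fold change 1.93, FDR = 0.190, edgeR).

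Of the ligands of the PDGF receptors, PDGFA, PDGFB and PDGFC did not pass the test, and PDGFD was too low to be tested (0 to 19 counts per liver). PDGFA had 8.94, 5.96 and 6.91 CPM in old livers A, B and C, against 1.95 to 6.58 CPM in young livers (log2 fold change 0.99, FDR = 0.111, edgeR). PDGFB had a log2 fold change of -0.08 (SE 0.36, FDR = 0.893) and PDGFC one of -0.25 (SE 0.33, FDR = 0.621, edgeR). Of the 19 genes tested in the list of PDGF and VEGF ligands, receptors and adaptors, 3 rose and none fell, near the share of all genes called higher, with a median of -0.06 (0.10 without liver A): KIT, the receptor of stem cell factor (log2 fold change 1.58, FDR = 0.0447), FLT4, a VEGF receptor (1.24, FDR = 0.0619), and the phospholipase PLCG1 (1.01, FDR = 0.0547, edgeR). All 3 calls were lost without liver A (log2 fold changes 1.39, 0.78 and 0.51, FDR = 0.120, 0.246 and 0.117, edgeR).

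**Figure D5:**
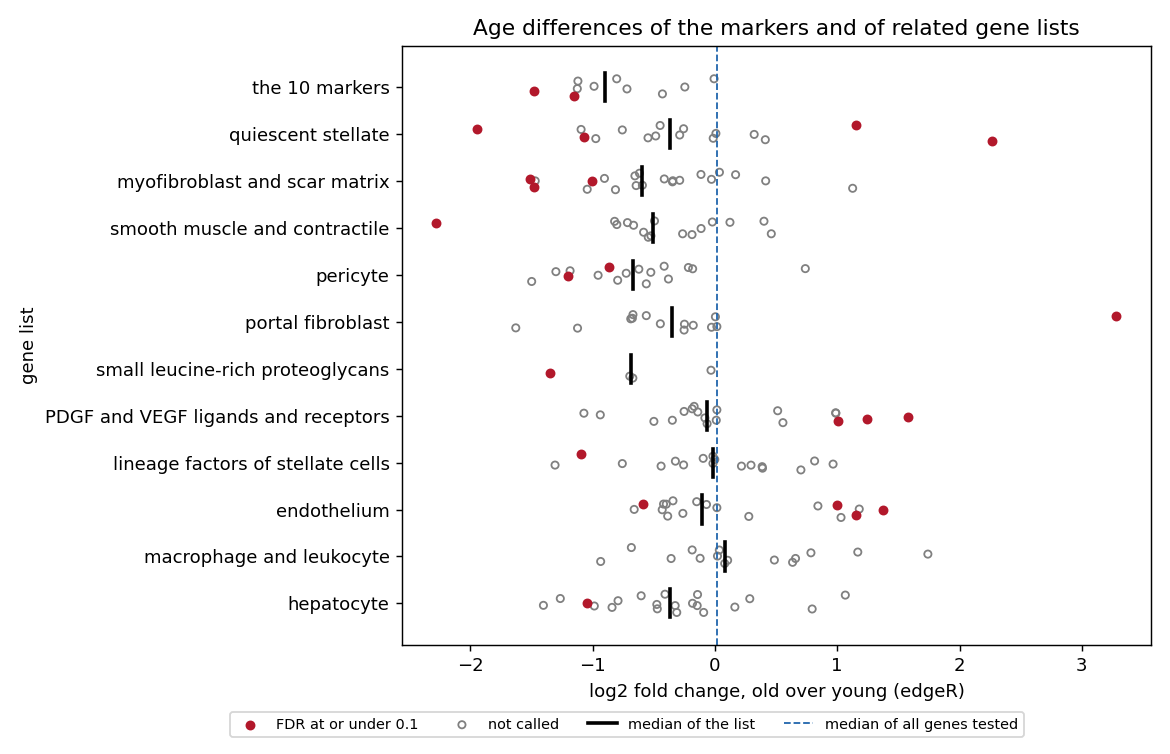
log2 fold change, old over young, of every tested gene in the 10 markers and in 11 further lists (points; filled red where FDR is at or under 0.1, open grey where not), with the median of each list (black bar) and of all genes tested (dashed line). The 10 markers, with a median of -0.90, and the myofibroblast (-0.59), pericyte (-0.67) and proteoglycan lists (-0.68) lie mostly left of the median of all genes (0.02). The smooth muscle (-0.51) and hepatocyte lists (-0.37) also lie mostly left of it, so the shift is not particular to stellate cell and matrix genes. Without liver A (not drawn) the medians were -0.64 for the 10 markers, -0.53 for the myofibroblast, -0.52 for the pericyte and -0.55 for the proteoglycan list. Those of the smooth muscle and hepatocyte lists were then -0.39 and -0.22.

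Markers of other cell types moved between the same livers, and their part in the results above was not tested. Of 20 hepatocyte genes 1 was called (lower), and their summed level was 57206, 169365 and 142712 CPM in old livers A, B and C, against 192820.1 to 295799 CPM in young livers. Of 18 endothelial genes 3 rose, near the share of all genes, among them STAB1 and CLEC4G of the sinusoids, and PECAM1 fell (none of these calls held without liver A), and the sum was 2036, 890.4 and 899 CPM in old livers A, B and C, against 558 to 968 CPM in young livers. Of 15 macrophage and leukocyte genes none was called by edgeR (3 with an unadjusted p under 0.05), with sums of 185, 753 and 691 CPM in old livers and 484 to 638 CPM in young livers. Of 7 red cell genes 3 fell, with sums of 90.2, 73.7 and 133 CPM in old livers and 237 to 959.7 CPM in young livers. The 11 bile duct genes had sums of 230.4, 379.6 and 366 CPM in old livers and 338 to 577 CPM in young livers. The defining markers ALB, PECAM1, CD68 and KRT19 were detected in every liver, and only 1 endothelial gene, CLEC4M, was at 0 in all 9 livers.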

How the data were processed

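Polyadenylated RNA from 9 livers, 1 animal and 1 library each, was read single-end. According to the authors, reads were mapped with STAR (2.4.1d in the submitters' processing notes) to their own naked mole-rat annotation and uniquely mapped reads were counted per gene with HTSeq, whose version and strand setting were not stated. The deposited table holds these counts, not normalized, for 16339 genes, of which 787 have no count.

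Rows whose place differs between a case-sensitive and a case-blind order of symbols (93, with 0.319% of counts) were left out. They were known from earlier results to be shifted in the old livers. Rows with symbols turned into dates (25, with 0.133%) were also left out, and no member or list gene is among the rows left out. Counts were scaled by TMM and filtered with filterByExpr, leaving 12277 genes, which were tested with edgeR 4.0.16 (robust quasi-likelihood, R 4.3.3) with Benjamini-Hochberg adjustment at FDR 0.1, as the study used. The SE is the absolute log2 fold change over the square root of F. Ratios of counts (0.5 added) were compared by exact permutation. Alternatives were DESeq2 1.42.0, voom with quality weights (limma 3.58.1), other scalings and filters, and each liver left out. The procedure was tested on simulated data. The livers come from separate animals, and no pair agreed within sampling noise (chi-square per degree of freedom at least 29.0).

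The members and lists were chosen with earlier results of these data known. Named are all members, of each other list the genes called (at most 6 by lowest p, or the 2 of lowest p where none is called), and LRAT, COL1A1, COL3A1, ALB, PECAM1, CD68 and KRT19. PDGFB, PDGFC, PDGFA, COL4A2 and CLEC4M fall outside this rule and were named after their values were seen. The value of 3 counts covers counting error only, whereas the SDs and SEs include the spread between animals. 1 called bile duct gene is not reported here. No protein, promoter or genome sequence was used here.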

Additional observations from a re-analysis of the deposited data

Results flagged for a closer look

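In 12 measures over the 6 young livers (the 10 markers and both count ratios, on a log2 scale), young liver 3 was far from the other young livers in 5, by Dixon's test at the 95% level. Chance alone flags about 5% of such groups. The 5 flags come from the same liver, and one is the ratio of PDGFRA to PDGFRB, which are themselves flagged. The flags are not independent, so their number cannot be weighed against that 5%. PDGFRA was at 2.38 CPM in young liver 3 and 14.4 to 26.0 CPM in the other 5. PDGFRB was at 6.07 CPM there and 14.4 to 19.6 CPM in the others. RGS5 was at 2.58 CPM, against 5.93 to 8.79 CPM. TAGLN went the other way, with 32.3 CPM in young liver 3 and 9.62 to 14.6 CPM in the others. The ratio of PDGFRA to PDGFRB counts was 0.395 in young liver 3 and 0.895 to 1.32 in the others. The same liver had 179 CPM summed over 9 mesothelial genes and 959.7 CPM over 7 red cell genes, the highest of all 9 livers in both, and the part of these in the marker levels was not tested.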

How the results depend on the processing

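In place of 2 markers, 1 was called lower in old livers under upper quartile scaling and under total counts without TMM (chosen after seeing the data), 4 with DESeq2 and without both old liver A and young liver 3, 5 with voom, and 0 at FDR 0.05. Leaving out each of the 9 livers gave 0 to 4, and no setting called a marker higher. Over all genes 1437 were called higher and 448 lower (76.2% higher). The counts were 2514 and 2066 with voom (54.9%), 3475 and 241 with total counts (93.5%), 1777 and 1070 with DESeq2 (62.4%), 1758 and 1451 without both livers (54.8%) and 330 and 90 at FDR 0.05. Leaving out 1 liver gave 125 to 2071 higher and 62 to 862 lower. With all rows of the deposited table kept, 1541 were called higher and 522 lower. Total counts moved the median log2 fold change of all genes to 0.32 and that of the markers to -0.59. Of 199 marker fold changes under alternatives, 162 kept direction and side of the threshold, 15 lost it, 10 gained it and 12 changed sign. Of 756 for other named genes these numbers were 567, 151, 29 and 9.

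Log2 fold changes that turned positive were ACTA2 0.041, DES 0.31, COL1A1 0.024, CD68 0.15 and KRT19 0.047 with total counts, and ACTA2 0.069, DES 0.083, CD68 0.33 and KRT19 0.31 with voom. DES was 0.011 with at least 10 counts in every liver (LUM was then not tested). Without liver A, ACTA2 was 0.12, PDGFRA 0.10 and CD68 0.35. DES was 0.07 without liver B, 0.07 without young liver 3 and 0.10 without young liver 6, and KRT19 was 0.44 without young liver 3. Without both livers ACTA2 was 0.10, DES 0.062, CD68 0.35 and KRT19 0.26. Over the 9 leave-outs the log2 fold change ran from -0.482 to 0.12 for ACTA2, -0.088 to 0.10 for DES, -0.956 to 0.10 for PDGFRA, -0.668 to 0.35 for CD68 and -0.454 to 0.44 for KRT19. The log2 difference in the PDGFRA to PDGFRB ratio was 0.86 without liver A, 0.02 without young liver 6 and 0.63 without both, and -0.62 to 0.86 over the 9 leave-outs. That of LUM to DCN was -0.14 without young liver 3, and -0.14 to 0.51 over the leave-outs. The cause of these changes was not tested. No paired analysis was possible because the old and young livers come from different animals. LUM rests on 5 to 59 counts per liver, and the parts of counting error and of spread between animals in its result were not tested.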

Other observations

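Called genes of some other families to which the markers belong stand beside 15.4% called among all genes tested. In lists this small the counts cannot be told apart from that share. Among the 12 other regulators of G protein signalling that were tested, relatives of RGS5, only RGS16 was called. It had 257 CPM in liver A, 394 in B and 458 in C, against 35.8 to 215 CPM in young livers (log2 fold change 2.06, FDR = 0.0541, edgeR), and without liver A the fold change was no smaller (2.26) but just missed the threshold (FDR = 0.102). Among 11 further filament proteins and partners GFAP rose and INA, a neuronal filament, fell, with 3.58, 1.93 and 1.95 CPM in old livers, against a mean of 11.1 ± 8.35 CPM in young livers (SD, n = 6, log2 fold change -2.16, FDR = 0.0814, edgeR). The INA call was lost without any one old liver (FDR = 0.174, 0.135 and 0.137), while its log2 fold change was -2.52 without liver A.

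Of 13 genes around serum response factor (SRF), which drives the actin genes of contractile cells, none was called by edgeR (4 with an unadjusted p under 0.05, and the median was -0.27). The lowest p belonged to FHL1, a LIM protein of muscle (log2 fold change -0.77, FDR = 0.110), and MKL1, a coactivator of SRF (0.98, FDR = 0.111, edgeR). Of 17 transcription factors of stellate cells and their activation, ETS1 fell, with 18.1, 30.7 and 25.4 CPM in old livers, against 34.6 to 72.0 CPM in young livers (log2 fold change -1.09, FDR = 0.0525, and 0.133 without liver A, edgeR). Of 9 mesothelial genes none was called by edgeR (1 with an unadjusted p under 0.05). Mesothelin (MSLN) had 3.52, 9.37 and 11.2 CPM in old livers, against 6.37 to 84.3 CPM in young livers (log2 fold change -1.88, FDR = 0.152, edgeR), with the highest value in young liver 3, and PDPN had a log2 fold change of -1.79 (FDR = 0.175, edgeR).

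The called genes of other cell types were as follows. STAB1 (log2 fold change 1.38), CLEC4G (1.15) and VWF (1.00), of endothelium, rose and PECAM1 (-0.58) fell (FDR = 0.0598, 0.0447, 0.0923 and 0.0833, edgeR). All these endothelial calls were lost without liver A (log2 fold changes 0.70, 0.86, 0.43 and -0.52, FDR = 0.246, 0.113, 0.428 and 0.152). CD24 (log2 fold change -1.34) fell among bile duct genes (FDR = 0.0804, edgeR). AHSG (-1.05), a plasma protein of hepatocytes, fell (FDR = 0.0669), and so did the globins HBA2 (-2.36) and HBB (-2.52) and ALAS2 (-1.85), the heme enzyme of red cells (FDR = 0.0376, 0.0499 and 0.0312, edgeR). Without liver A the calls of AHSG (log2 fold change -0.77, FDR = 0.102) and HBB (-2.38, FDR = 0.144, edgeR) were lost. ALB had a log2 fold change of -1.40 (FDR = 0.103), CD68 of macrophages -0.12 (FDR = 0.878) and KRT19 of bile ducts -0.28 (FDR = 0.779). Among macrophage and leukocyte genes the lowest p belonged to LYZ (1.74, FDR = 0.111) and PTPRC (0.66, FDR = 0.124, edgeR). Without young liver 2, COL3A1, GFAP, HBA2 and ALAS2 were the only genes named here that were still called.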
